A study of Bos taurus with 8 samples.

Results

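Water and sodium-potassium transport in the lactating cow mammary gland was described through 8 genes: the aquaporins AQP1, AQP3 and AQP5, the epithelial sodium channel subunits SCNN1A and SCNN1G, the potassium channel KCNK5, the sodium-potassium-chloride cotransporter SLC12A2 and the sodium pump subunit ATP1B1. They were chosen by gene symbol, taking every probe set (a group of short probes for 1 transcript) whose platform annotation names exactly 1 of these symbols. All 8 genes were present, with 12 of the 24016 probe sets tested and 8 of the 9155 genes with a single symbol. Expression was profiled in the lactating udder of 4 cows (Bos taurus, Holstein), and the labels name no treatment besides milk removal. Each cow gave 1 sample 12 h after milk removal, when the gland is called full, and 1 sample at 0 h, with milk just removed, when it is called empty. The series concerns the effect of milk accumulation, and the 2 states were compared within cows. No label gives the age of the cows, which biopsy came first or which part of the udder was sampled, and such differences cannot be told apart from the state of the gland.

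Milk is made iso-osmotic with blood by water that follows lactose and ions through the secretory epithelium, and its sodium is low and its potassium high compared with plasma. The sodium pump in the basolateral membrane sets the ion gradients, cotransporters and channels use them, and aquaporins let water (or, for some, glycerol as well) follow. In other epithelia, when tight junctions are closed, sodium that reaches the lumen can be taken back through the epithelial sodium channel, which is built from alpha, beta and gamma subunits.

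All values are log2 signals of single-colour arrays, made by the authors with RMA, and each difference is full minus empty with limma's moderated standard error (SE) over 4 cows unless stated otherwise. Arrays have no read depth, and their number limits the precision. The milk protein genes CSN1S1, CSN1S2, CSN2, CSN3, LALBA and PAEP had mean levels between 13.34 and 14.39, close to the highest value on the arrays, and the levels of 9 luminal epithelial markers lay between 8.10 and 13.47. Of the 8 arrays, the full ones of cows 2 and 4 were least like the rest (median r with the others of 0.969 and 0.975, and at least 0.986 for each of the other arrays). In the full array of cow 4 the 3' actin control exceeded the 5' one by 1.36 log2, while in the other arrays this difference lay between -0.07 and 0.07. In a bulk biopsy, fewer cells of a type and less RNA per cell cannot be told apart.

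Among the 8 genes, the potassium channel KCNK5, the water and glycerol channel AQP3 and the sodium channel subunit SCNN1G had the widest mean differences, all toward lower signal in full gland, and none of the 12 probe sets passed limma's test over the whole array at an adjusted p of 0.05. Of the 24016 probe sets 0 passed (0%), with a smallest adjusted p of 0.993. Without adjustment, 600 probe sets (2.50% of all) had a p under 0.05, and 1 member probe set, that of KCNK5, was lower, beside 1.40% of all probe sets that were lower, and 0 were higher, beside 1.10%. By direction of the mean, 7 of the 12 were lower and 5 higher, beside 50.1% lower in all probe sets. By gene, taking the brightest probe set of each, 4 of the 8 were lower and 4 higher. The median difference of the 12 was -0.03, and -0.0003 over the whole array. In no member probe set were full and empty arrays free of overlap, beside 0.812% of all probe sets. The direction was lower in all 4 cows for 2 member probe sets, those of KCNK5 and AQP5, beside 5.97% of all, and higher in all 4 for 0, beside 4.22%.

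**Figure D1:**
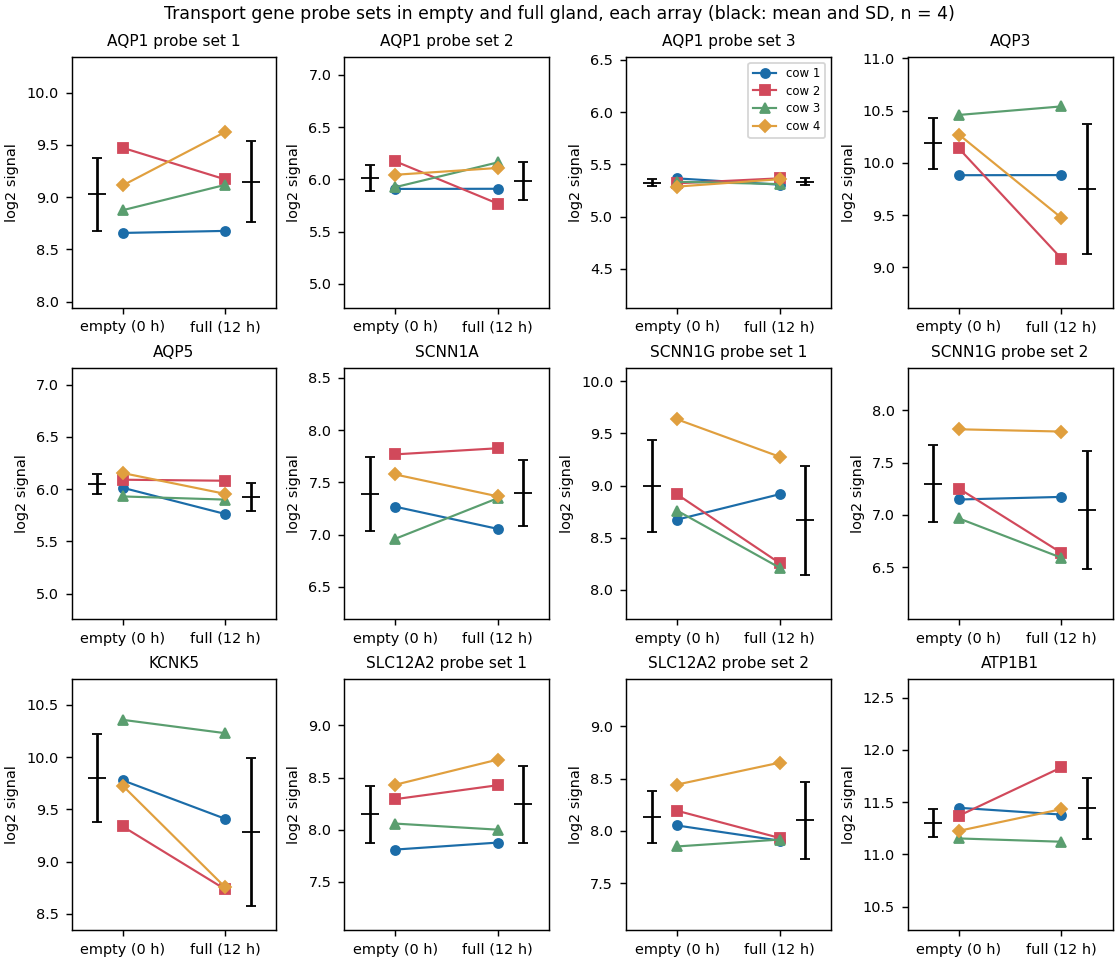
Log2 signal of the 12 probe sets in empty (0 h) and full (12 h) gland, 1 panel per probe set, with each cow's 2 arrays joined by a line and the group mean with SD (n = 4) in black. Every panel spans the same number of log2 units, so that slopes can be compared: KCNK5 slopes down in all 4 cows, AQP3 only in cows 2 and 4, and AQP1 probe set 3 is flat.

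KCNK5 encodes a two-pore-domain potassium channel, known from kidney and other epithelia as an outlet for potassium that recycles through the membrane. Its probe set read 9.78, 9.34, 10.36 and 9.73 in the empty glands of cows 1 to 4. In the full glands of the same cows it read 9.41, 8.74, 10.23 and 8.75. Every cow had the lower value in the full gland, but the groups overlapped, and cow 3 was highest in both states. The mean was 9.80 ± 0.42 (SD, n = 4) in empty gland and 9.28 ± 0.71 in full gland. The difference was -0.52 ± 0.14 (SE, n = 4 cows), which is 1.43-fold higher in empty gland, with a 95% interval of -0.87 to -0.16. The adjusted p in limma was 0.993 and the unadjusted p 0.012. In the exact two-sided sign-flip permutation test over the 4 cow differences p was 0.125, which is the smallest value that 4 pairs can give. By cow the differences were -0.37, -0.60, -0.13 and -0.97, so that cow 4, whose full array had the wide actin difference, had the largest, and the part of RNA quality in that value was not tested. Without cows 2 and 4 the difference was -0.25.

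AQP3 is an aquaglyceroporin, a channel for water and glycerol found on the basolateral side of many epithelia. Its probe set read 9.88, 10.14, 10.46 and 10.27 in the empty glands of cows 1 to 4, and 9.88, 9.09, 10.54 and 9.47 in the full glands. The full arrays of cows 2 and 4 were the lowest 2 of the 8, while in cows 1 and 3 the 2 states lay within 0.08 log2 of each other. The mean difference was -0.44 ± 0.21 (SE, n = 4 cows; adjusted p = 0.993 in limma), with a 95% interval of -0.97 to 0.09. Without cows 2 and 4 the difference was 0.04.

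Markers of several cell types moved in the same 2 full arrays in which AQP3 and KCNK5 were lowest. The mean log2 level of 9 luminal epithelial markers was 11.13 in the full gland of cow 2 and 11.26 in that of cow 4, against 10.56 to 10.84 in the other 6 arrays. That of 9 fibroblast markers was 10.85 and 11.16 there, against 10.16 to 10.66. For 9 immune markers it was 8.04 and 8.31, against 7.59 to 7.89. The 6 milk protein genes did not share this rise. Of them 1 was higher in full gland in cow 2 and 2 in cow 4, with median differences of -0.10 and -0.01. ELF5, within the luminal list, differed by -0.29 and -0.17 in these cows. KRT19 and ESRP1 of that list differed by -0.09 and -0.12 in cow 4. Higher in full gland were 8 of 9 luminal genes in cow 2 and 6 in cow 4. For fibroblast genes the counts were 7 and 8 of 9, and for immune genes 7 and 8 of 9. THY1 of the fibroblast list and CD14 of the immune list went the other way in cow 2, by -0.86 and -0.97. The mean level of 9 myoepithelial markers stood out in cow 4 alone, at 10.77 in its full array against 9.68 to 10.14 in the other 7. In cow 2, 7 of these 9 were also higher in full than in empty gland, with a median difference of 0.18. Over the 4 cows, 9 of 9 had a higher mean in full gland. Of these lists 7 of 9 luminal, 7 of 9 fibroblast and 8 of 9 immune genes had a higher mean in full gland. No list had a gene at 0, but the lowest value of any probe set was 4.98, so this says nothing of detection. Over the 8 arrays, as a description, the luminal mean level had r = -0.86 with AQP3 and -0.87 with KCNK5. The fibroblast mean had -0.78 and -0.86, and the immune mean -0.76 and -0.76. Without the full arrays of cows 2 and 4 these were -0.59 and -0.58, -0.54 and -0.66, and -0.39 and -0.24. The milk protein mean had r = 0.37 and 0.27 over the 8 arrays. The part of these shifts in the result for AQP3 or KCNK5 was not tested.

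AQP1 and AQP5 are water-selective channels, AQP1 best known from capillary endothelium and red blood cells and AQP5 from the apical membrane of secretory glands. Of the 3 probe sets of AQP1, the brightest read 8.66, 9.47, 8.87 and 9.11 in empty and 8.68, 9.17, 9.12 and 9.62 in full gland for cows 1 to 4. It was lower in full gland in cow 2 and higher in the other 3 cows. The mean difference was 0.12 ± 0.14 (95% interval -0.22 to 0.46, adjusted p = 0.993 in limma). The second AQP1 probe set was lower in cow 2 as well, by -0.41, and averaged -0.03 ± 0.12. The third lay between 5.29 and 5.37 in all 8 arrays, near the bottom of the array's range, and differed by 0.01 ± 0.07. The brightest 2 probe sets thus had the same direction in 4 of 4 cows, and the third shared it with the brightest in 1.

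The endothelial markers PECAM1, CDH5, VWF, KDR, TEK, CLDN5, EMCN, ENG and EGFL7 had a median difference of -0.39 in cow 2, where AQP1 was also lower in full gland. In cows 1, 3 and 4 their medians were -0.12, 0.04 and 0.06. Across the 8 arrays, which come in pairs from 4 cows, their mean level and the brightest AQP1 probe set had r = -0.24, given as a description. The mean level of these 9 markers ranged from 8.66 to 8.98 in full and from 8.86 to 9.09 in empty gland. A higher mean in full gland was seen in 2 of 9 genes. VWF alone lay below the median of all probe sets, at the percentile 20.6. The red blood cell list was dim, with 5 of 6 genes below the median of all probe sets, and had a range of 6.29 to 6.41 in full and 6.30 to 6.42 in empty gland. The part of endothelial or blood RNA in the AQP1 values was not tested.

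AQP5 had a dim probe set, whose mean level had the percentile 24.2 among all probe sets. It read 6.01, 6.09, 5.93 and 6.15 in empty and 5.76, 6.08, 5.90 and 5.96 in full gland. The differences of -0.25, -0.01, -0.03 and -0.20 had 1 sign, but those of cows 2 and 3 were close to 0. The mean was -0.12 ± 0.08 (95% interval -0.31 to 0.07, adjusted p = 0.993 in limma; exact sign-flip p = 0.125). No detection call comes with the deposited values, so it is not known whether this signal lies above background.

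**Figure D2:**
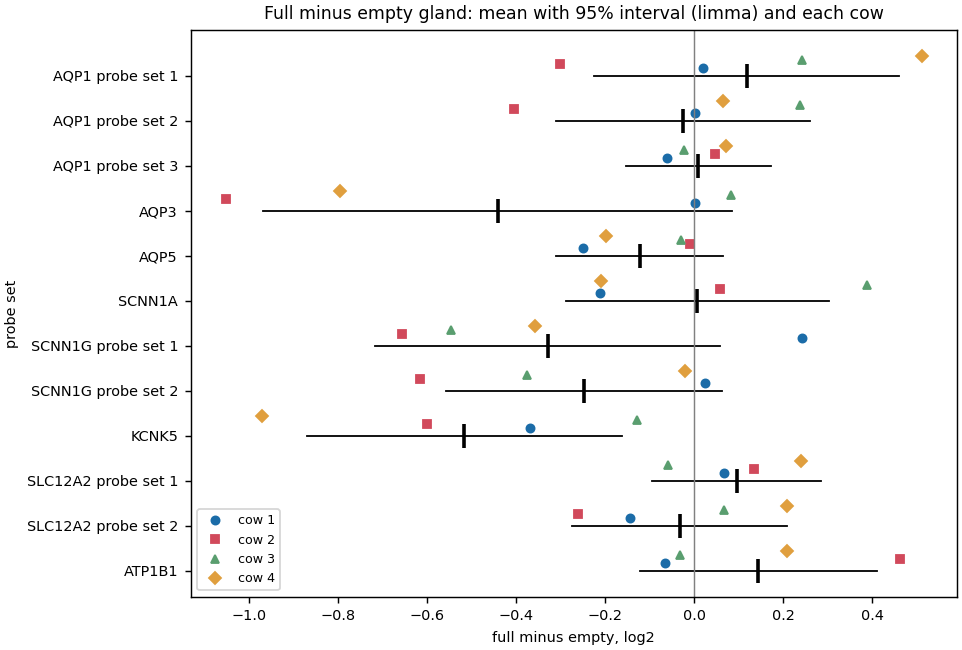
Full minus empty difference (log2) of the 12 probe sets. Black ticks and lines are the mean and its 95% interval from limma, and coloured points are the 4 cows. The interval of KCNK5, from -0.87 to -0.16, is the only one of the 12 that leaves out 0, and it is not adjusted for the number of probe sets.

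SCNN1A and SCNN1G encode the alpha and gamma subunits of the epithelial sodium channel, through which sodium enters a cell from the lumen. The brighter SCNN1G probe set read 8.67, 8.92, 8.76 and 9.63 in empty and 8.92, 8.26, 8.21 and 9.28 in full gland for cows 1 to 4. Full gland was lower in cows 2, 3 and 4 and higher in cow 1, and cow 4 had the highest level in both states. The mean difference was -0.33 ± 0.16 (95% interval -0.72 to 0.06, adjusted p = 0.993 in limma). The second SCNN1G probe set gave 0.02, -0.62, -0.38 and -0.02 by cow, with a mean of -0.25 ± 0.13. Both probe sets had the same direction in 4 of 4 cows and r = 0.97 across the 8 arrays, so that the spread between cows was shared by 2 separate groups of probes. The difference of the brighter set was -0.15 without cows 2 and 4 (unadjusted p = 0.411 in limma). With 1 cow left out at a time it ran from -0.52 without cow 1 (unadjusted p = 0.0038, adjusted p = 0.832 in limma) to -0.22 without cow 2 (unadjusted p = 0.24), and that of the second set came to -0.12 without cow 2.

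SCNN1A had 1 probe set, at 7.27, 7.77, 6.96 and 7.57 in empty and 7.05, 7.83, 7.35 and 7.37 in full gland. It was lower in full gland in cows 1 and 4 and higher in cows 2 and 3. The mean difference was 0.01 ± 0.12, with a 95% interval of -0.29 to 0.30 (adjusted p = 0.999 in limma). The sign of this small mean turned to -0.01 when arrays were centred on their medians and to -0.02 after repeated quantile normalization. Alpha and gamma subunit transcripts had the same direction in 1 of the 4 cows, cow 4, and r = -0.03 across the arrays. Their differences were not tested against each other.

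SLC12A2, the cotransporter that brings sodium, potassium and chloride into secretory cells, had 2 probe sets. The brighter one read 7.81, 8.29, 8.06 and 8.43 in empty and 7.88, 8.43, 8.00 and 8.67 in full gland. Within each cow the states lay close together, and cows ranked 4, 2, 3 and 1 from high to low in both. The mean difference was 0.10 ± 0.08 (95% interval -0.09 to 0.29, adjusted p = 0.993 in limma). The second probe set differed by -0.03 ± 0.10, and the 2 sets had the same direction in 1 of 4 cows.

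ATP1B1, the beta subunit that carries the sodium pump to the membrane, had 1 probe set. It read 11.45, 11.37, 11.15 and 11.22 in empty and 11.38, 11.83, 11.12 and 11.43 in full gland. The full gland of cow 2 stood highest, and cows 1 and 3 were slightly lower in full than in empty gland. The mean difference was 0.14 ± 0.11 (95% interval -0.12 to 0.41, adjusted p = 0.993 in limma), and without cows 2 and 4 it was -0.05.

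The 4 cows were compared with each other by the F-test in the same limma model. Of the 12 member probe sets 7 had an unadjusted p under 0.05, beside 14.8% of all probe sets. By gene, taking the brightest probe set, the count was 5 of 8. After adjustment over the array 0 of the 12 passed, beside 0.437% of all. That share stands for 105 probe sets, and the count was 29, 131, 27 and 13 when cows 1, 2, 3 and 4 were left out in turn. The smallest adjusted p among members was 0.147, for the brighter SLC12A2 probe set, whose cow means ran from 7.84 in cow 1 to 8.55 in cow 4. For KCNK5 (adjusted p = 0.169) the cow means ran from 9.04 in cow 2 to 10.29 in cow 3. This range of 1.26 log2 is wider than the mean difference between states, but a range over 4 cows and a mean difference are unlike measures. For the brighter SCNN1G probe set (adjusted p = 0.261) they ran from 8.49 in cow 3 to 9.45 in cow 4. Both arrays of a cow come from 1 animal, so this test compares these 4 animals only.

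Across the 8 arrays, AQP3 and KCNK5 had the highest correlation of the 28 pairs of member genes (r = 0.91), and AQP3 and ATP1B1 the lowest (r = -0.95). KCNK5 and ATP1B1 had r = -0.82. AQP3 and KCNK5 had the same direction between states in 2 of the 4 cows. Leaving out the full arrays of cows 2 and 4, a choice made after seeing the data, gave r = 0.76, -0.96 and -0.79 for these 3 pairs over 6 arrays. AQP1 and SCNN1A were then the highest pair (r = 0.82, and 0.60 over 8 arrays). Some other pairs turned sign, such as AQP3 with SLC12A2 (from -0.44 to 0.38) and AQP3 with AQP1 (from -0.23 to 0.45). AQP1 and SLC12A2 had r = 0.86, and 0.78 without those 2 arrays. The arrays come in pairs from 4 cows and were normalised together, so these values describe the 8 arrays and carry no p.

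**Figure D3:**
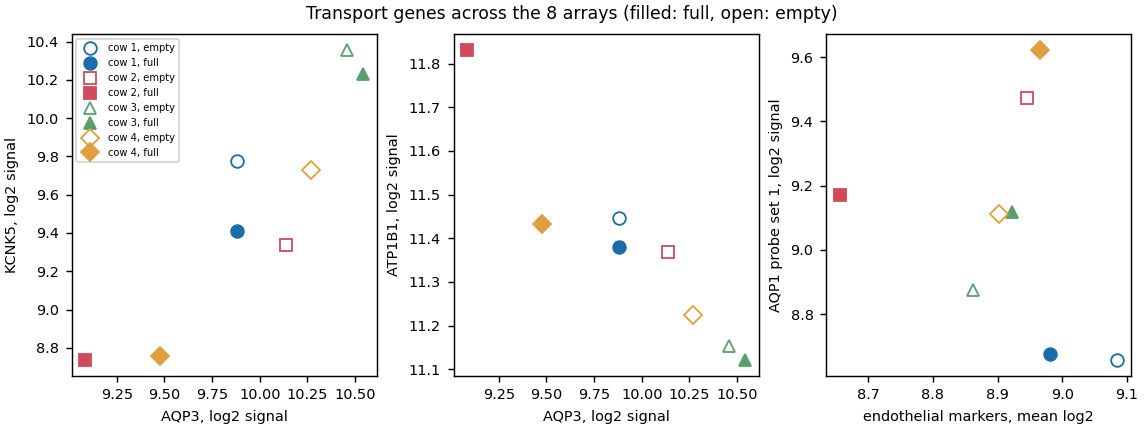
Log2 signal in the 8 arrays, with filled symbols for full and open symbols for empty gland and 1 symbol shape per cow: KCNK5 against AQP3 (left), ATP1B1 against AQP3 (middle) and the brightest AQP1 probe set against the mean log2 level of 9 endothelial markers (right). AQP3 and KCNK5 are both lowest in the full glands of cows 2 and 4 and highest in cow 3, ATP1B1 runs the other way, and AQP1 shows no common order with the endothelial markers.

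The genes whose pattern over the 8 arrays was most like each member, by Pearson's r among 9012 genes, were found as a description. For KCNK5 they were AHCYL2 (r = 0.985) and LPO, the milk peroxidase lactoperoxidase (r = 0.983), and both were lower in full gland in all 4 cows. LPO differed by -0.10, -0.54, -0.19 and -0.86 in cows 1 to 4. For AQP3 they were GNPTAB (r = 0.982) and CHCHD2 (r = 0.981), and for ATP1B1 they were RABL2B (r = 0.984) and WTIP (r = 0.983). SCNN1G was most like RPS27 (r = 0.967) and ITPK1 (r = 0.961), and SLC12A2 most like LBH (r = 0.978) and the zinc transporter SLC39A6 (r = 0.976). AQP1 was most like NRAS (r = 0.954) and HSP90AA1 (r = 0.945), SCNN1A most like ESF1 (r = 0.928) and XPO1 (r = 0.917), and AQP5 most like PRPH2 (r = 0.941) and COMMD8 (r = 0.932). With so many genes and 8 arrays, values of this size say nothing of shared control.

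Other genes of water and ion transport, from 6 lists, showed differences on both sides of 0. Of 106 listed genes 59 had a probe set, each represented by its brightest, with 31 lower and 28 higher in full gland, a median of -0.02, and 0 passing limma's adjusted test. At an unadjusted p under 0.05, 3 were lower (beside 1.40% of all probe sets) and 0 higher (beside 1.10%). Lower in all 4 cows were 5 of the 59, KCNK1, KCNQ1, SLC4A2, ATP1B2 and SLC12A1, beside 5.97% of all probe sets, and higher in all 4 was 1, KCNJ10, beside 4.22%. Of these ATP1B2 is named for this count, after its values were seen. ATP1B2 and SLC12A1 had dim probe sets, with mean levels at the percentiles 15.8 and 3 among all probe sets, and that of KCNQ1 was at 33.1. ATP1B2 differed by only -0.005 and -0.006 in cows 1 and 4, and SLC12A1 by -0.007 in cow 3.

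Among 15 potassium channel genes, 6 were lower and 9 higher, with a median of 0.02. KCNK1, a two-pore-domain channel like KCNK5, differed by -0.33 ± 0.11 (adjusted p = 0.993 in limma), with -0.07, -0.57, -0.18 and -0.51 in cows 1 to 4. Its second probe set differed by -0.11 and was lower in cows 2 and 4 only. KCNQ1, a voltage-gated channel of secretory epithelia, differed by -0.18 ± 0.06 and within a narrow span of -0.20, -0.18, -0.12 and -0.20 by cow, while its second probe set differed by -0.02. KCNJ10, an inward rectifier, had a very dim probe set and differed by 0.17 ± 0.09.

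Among 10 genes of the sodium channel list, 6 were lower and 4 higher. SCNN1B, the beta subunit, differed by -0.11 ± 0.09, with the same direction in each cow as the brighter SCNN1G set (0.12, -0.26, -0.11 and -0.21 in cows 1 to 4). Its signal was dim, at 6.25 ± 0.12 (SD, n = 4) in empty gland and 6.14 ± 0.15 in full gland. NEDD4L, the ubiquitin ligase that removes the channel from the membrane, differed by 0.23 ± 0.11, with 0.40, 0.46, -0.08 and 0.12 by cow. SGK1, the kinase that opposes NEDD4L, differed by 0.34 ± 0.18 in its brightest and by 0.53 ± 0.21 in its second probe set, with the widest value in cow 4 in both (0.99 and 1.31). Without cow 4, whose full array had the wide actin difference, the brightest set differed by 0.12, and without cows 2 and 4 by 0.02. The third set, which was dim, differed by 0.04. FURIN, a protease that activates the channel, differed by -0.12 ± 0.08. The adjusted p in limma was 0.993 for each of these genes.

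Of 9 sodium pump genes 4 were lower and 5 higher, with FXYD5 at 0.17 ± 0.20, FXYD1 at 0.15 ± 0.19 and FXYD7 at 0.07 ± 0.07, small proteins that modulate the pump. FXYD5 and FXYD1 were widest in cow 4, at 0.88 and 0.82. Of 4 cation-chloride cotransporter and kinase genes, 3 were lower and 1 higher, with SLC12A4 at 0.18 ± 0.17, SLC12A1 at -0.06 ± 0.07 and the kinase WNK2 at -0.03 ± 0.13. The 4 other aquaporins with a probe set, 1 lower and 3 higher, all had dim signals, with AQP7 at 0.19 ± 0.15, AQP4 at 0.07 ± 0.07 and MIP at -0.05 ± 0.07. The adipocyte markers, which are relevant to AQP7 as a glycerol channel of fat cells, had a mean level of 8.57 to 8.85 in full gland. In empty gland it was 8.68 to 8.81, with 1 of 5 higher in full gland on average. Of these 5 genes 3 lay below the median of all probe sets, with ADIPOQ at the percentile 3.08. FABP4 and LPL were at 99.6 and 99.5, so the mean level rests largely on them. The part of fat cells in the AQP7 value was not tested. Of 17 proton exchange and chloride genes 11 were lower and 6 higher. SLC4A2, a chloride-bicarbonate exchanger, differed by -0.21 ± 0.07, with -0.15, -0.34, -0.12 and -0.24 by cow. The carbonic anhydrase CA2 differed by 0.30 ± 0.16 and CLIC1, a chloride intracellular channel protein, by 0.37 ± 0.23, with -0.38 in cow 1 and 1.10 in cow 4. The adjusted p in limma was 0.993 for each of these genes too.

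**Figure D4:**
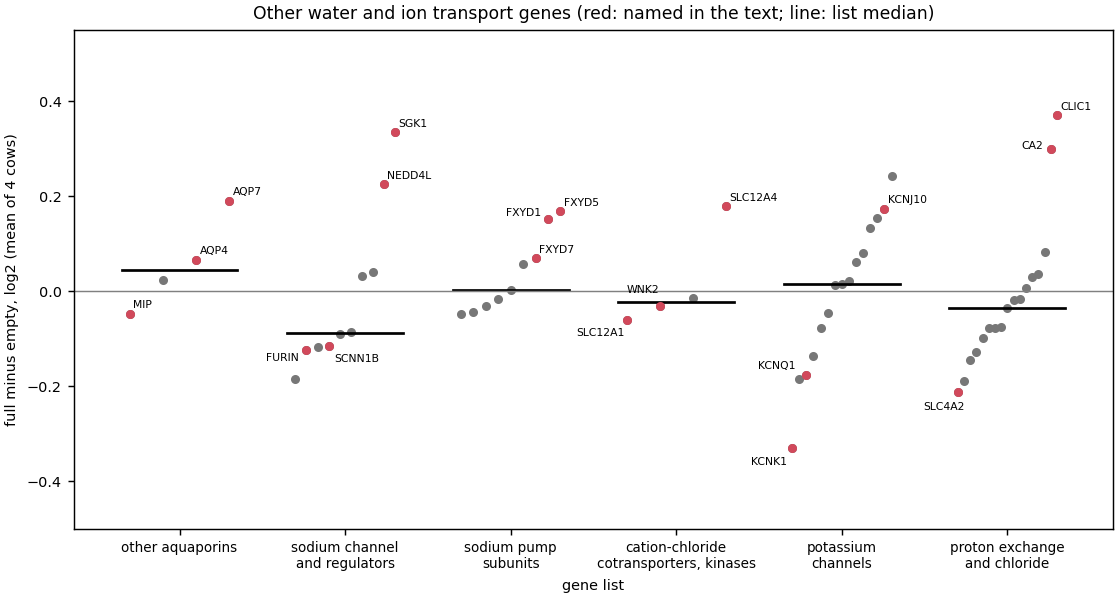
Mean full minus empty difference (log2, 4 cows) of 59 other water and ion transport genes by list, 1 point per gene (brightest probe set), with the list median as a line and the named genes in red. All points lie between KCNK1 at -0.33 and CLIC1 at 0.37, and the list medians lie between -0.09 and 0.05.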

How the data were processed

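Total RNA of 8 biopsies was purified and made into biotinylated cRNA from an oligo(dT) primer, per the labels' protocols. Each probe set has, for each array, 1 log2 value that the authors deposited and made with RMA, per the submitters' processing notes, which name no version. RMA brings the probe values of arrays to equal distributions, which hides a shift common to most genes. The medians of the deposited probe set values were not equal. They ran from 7.085 in the empty array of cow 3 to 7.243 in the full array of cow 4. The values (4.98 to 14.43) were used as deposited, without 112 platform controls among 24128 probe sets. The platform annotation gave 1 symbol to 13292 of the 24016 tested, several to 86 and none to 10638. Through entrez numbers 13263 matched RefSeq genes of ARS-UCD2.0 and 0 symbols changed. No sequences or coordinates are given.

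State and cow were fixed terms in limma 3.58.1 (R 4.3.3, two-sided), with Benjamini-Hochberg adjustment over all probe sets. The descriptions name both samples of each cow, and deviations from the group means correlated within cows at 0.457, 0.319, 0.597 and 0.525. The members and lists were chosen with earlier results of these data known. Named were all members, up to 3 genes per list with the smallest unadjusted p, SCNN1B, SGK1, NEDD4L, and the 2 most alike genes per member. Alternatives were no block, a random block, other normalizations, brighter probe sets, left-out cows, array weights and another prior. Tables used pandas 2.3.3.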

Additional observations from a re-analysis of the deposited data

Results flagged for a closer look

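In groups of 4 arrays or 4 cow differences, 5 of 93 groups of values held 1 value far from the other 3 by Dixon's 95% criterion for the gap over the range, where chance gives about 1 in 20. The second SLC12A2 probe set read 8.65 in the full gland of cow 4, against 7.91 to 7.93 in the other full glands. Cow 4 was highest in empty gland as well, at 8.44 against 7.85 to 8.19. AQP7, an aquaglyceroporin with a dim probe set, read 6.20 in the full gland of cow 4 against 5.44 to 5.55 in the others, and its full minus empty difference in cow 4 was 0.75 against -0.03 to 0.07. AQP7 also read 5.58 in the empty gland of cow 2 against 5.45 to 5.47. SLC4A2 read 10.19 in the empty gland of cow 3 against 9.46 to 9.56 in the other empty glands.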

How the results depend on the processing

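No probe set of the array passed under any alternative, and the smallest adjusted p was 0.142, without cows 2 and 4. The direction held in all 12 alternatives for KCNK5 (-0.65 to -0.25), both SCNN1G sets and the brighter SLC12A2 set, and in all 11 for AQP5. No block, a random block, brighter probe sets and another prior leave the mean difference as it was, so the direction could not turn under them. The brighter SLC12A2 set came down to 0.0043 without cows 2 and 4. The count of member probe sets at an unadjusted p under 0.05 was 0 with no replicate block and 0 with cow as a random block, and 1 to 2 with 1 cow left out. With no replicate block the unadjusted p of KCNK5 was 0.178, and the block changed no adjusted call. Differences between cows were called for 208 probe sets after median centring, and for 13 to 131 with 1 cow left out. The sign turned without cows 2 and 4 for AQP3 (0.041), ATP1B1 (-0.048), AQP1 sets 2 and 3 (0.12 and -0.041), SCNN1B (0.0028), FXYD1 (-0.20), SLC12A4 (-0.18), CLIC1 (-0.10) and CA2 (-0.037). Leaving out 1 cow at a time spanned both signs for AQP1 set 1 (-0.013 to 0.26), set 2 (-0.11 to 0.10) and set 3 (-0.012 to 0.032, and -0.0041 without cow 2), SCNN1A (-0.12 to 0.079, and -0.011 without cow 2) and SLC12A2 set 2 (-0.11 to 0.044, and 0.0050 without cow 1). The same held for FXYD1 (-0.071 to 0.31), FXYD5 (-0.068 to 0.31) and WNK2 (-0.19 to 0.069). Median centring turned SCNN1A (-0.011) and AQP1 set 3 (-0.0085), repeated quantile normalization SCNN1A (-0.017), and array weights AQP1 sets 2 and 3 (0.081 and -0.011). The causes were not tested.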
